A study of Nothobranchius furzeri with 20 samples.

Results

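The comparison described here sets the skin of old fish against that of young fish, all labelled as exercised in a swim tunnel, in the turquoise killifish Nothobranchius furzeri. Its members are 10 of the 20 libraries of the study, chosen by their labels and title numbers. The choice was made with earlier results of these data known. The 5 libraries labelled 27 weeks with titles JM132 to JM136 form the old group, and the 5 labelled 9 weeks with titles JM117 to JM121 form the young group. All 10 came from skin of male fish of the strain MZM-04/10p, a line derived from wild fish, and all carry the swim tunnel as perturbation in their labels, a flow chamber that makes fish swim against moving water. The labels give no unexercised fish of 27 weeks and do not say how long the exercise lasted or whether each library is 1 fish. In what follows, a fish stands for 1 library. Another run of 27-week titles carries the same labels and was not used in this comparison. Both runs are labelled as exercised although the 9-week fish include an unexercised run, and the files hold nothing that checks the exercise label of either. If the label of JM132 to JM136 were wrong, exercise would differ along with age here. Each age is 1 run of consecutive title numbers, so the effect of age and that of any batch following the titles cannot be told apart.

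The turquoise killifish lives in seasonal ponds and ages within months, which makes it a laboratory model of vertebrate ageing. Fish skin is a living epidermis of keratinocytes, mucous cells and ionocytes over a collagen-rich dermis with scales, pigment cells, vessels and nerves. A library of whole skin averages over all of these, so fewer cells of a type and less RNA per cell cannot be told apart. The deposited tables give gene identifiers with no names, and 0 of the 26739 were found in the gene table of NfurGRZ-RIMD1, the reference assembly used here. No cell type or pathway was checked, and genes are described by level, length, size of change and the fish in which they changed.

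The libraries held 20597690 to 38619614 counted reads. Total reads averaged 31029591 ± 3884886 (SD, n = 5) in young fish and 31503458 ± 7248520 (SD, n = 5) in old fish, and the ranges of the groups overlapped. Of the 26739 genes, 4066 had no read in any of the 10 libraries and 18348 had enough reads to be tested.

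Many genes differed in level between old and young skin. Of the 18348 genes tested, 9238 (50.3%) were called at an adjusted p under 0.05 in edgeR's quasi-likelihood test. In old fish 4746 genes (25.9%) were higher and 4492 (24.5%) were lower. Most changes were small: the median called change was 1.85-fold among higher genes and 1.78-fold among lower genes, and 90% of each list changed by less than 3.84-fold and 3.02-fold. The called change passed 2-fold in 2019 higher and 1639 lower genes, 4-fold in 438 and 193, 8-fold in 90 and 31, and 16-fold in 12 and 9. The median log2 fold change over all tested genes was -0.01, a centre that the scaling sets: it was 0.08 with library totals alone and -0.05 with upper quartile factors.

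Large changes were more often increases. A stricter test, which asks whether a gene changed by more than 2-fold, called 1414 genes (7.71% of those tested), 968 higher (5.28%) and 446 lower (2.43%). It took in 20.4% of all higher calls and 9.93% of all lower calls. The share of higher genes was 51.4% among all calls and between 48.2% and 59.7% under 3 other scalings of the libraries. Genes past 2-fold by the test numbered 897 to 1095 higher and 336 to 507 lower under these scalings, an excess of increases in each.

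**Figure D1:**
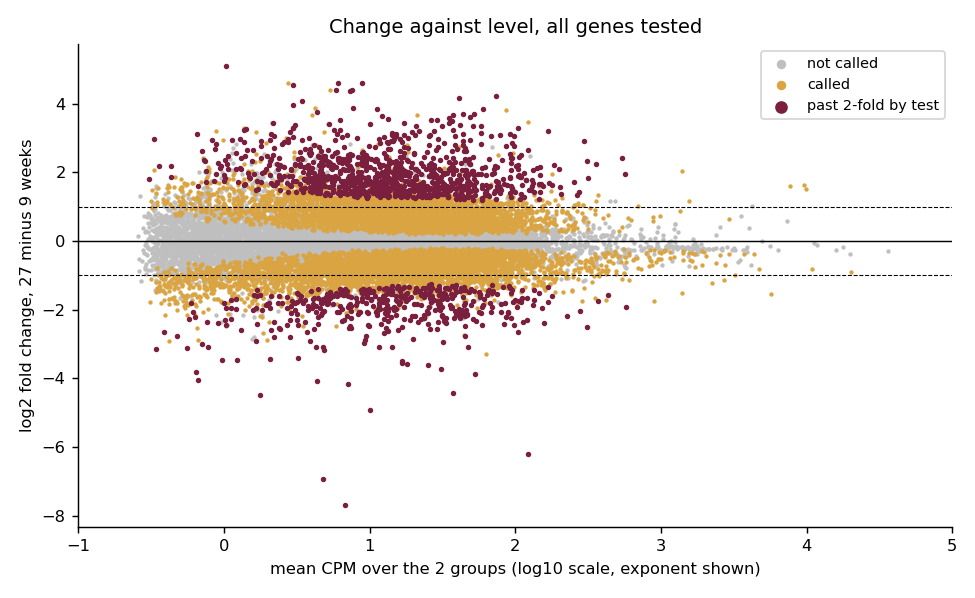
Log2 fold change of each tested gene (27 minus 9 weeks, vertical axis) against its mean CPM (counts scaled to library size) over both groups (horizontal axis, log10 exponents), with dashed lines at 2-fold. Genes past 2-fold by the test (968 higher, 446 lower) lie mostly at middle levels, and 3 genes lie below all others with falls past 64-fold.

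Fish of the old and young groups were fully separated in a large part of the transcriptome. In CPM (counts scaled by library total and by edgeR's scaling factor), the 5 old fish lay wholly above the 5 young fish in 3770 genes (20.5%) and wholly below them in 3122 genes (17%), together 6892 genes (37.6%). Among called genes, 78.7% of the higher and 68.9% of the lower ones showed no overlap. Each old fish taken alone was above all young fish in 6060 to 6401 genes and below all of them in 5887 to 6509 genes. Each young fish was above all old fish in 5529 to 5991 genes and below all of them in 5605 to 6008. Each of these counts includes the genes without overlap given above. A single library also lies outside 5 others in part of the genes when there is no difference. The similar counts are thus not separate support from each of the 10 fish.

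The first principal component of log2 CPM held 51.1% of the variance and separated the ages, with young fish at -71.8 to -39.0 and old fish at 40.6 to 68.3. Replicate 1 was the young fish nearest to the old group and replicate 3 the old fish nearest to the young group. The second component, with 11.7%, set replicate 1 of the young fish at 57.0 apart from the other young fish at -16.2 to -6.55, and spread the old fish from -50.5 to 30.6. The third component, with 9.71%, set replicate 4 of the old fish at 66.3 apart from the other old fish at -33.3 to 4.29. To make a pair of libraries alike, 9.18% to 17.2% of reads would have to be reassigned between genes among young fish (10 pairs) and 7.80% to 18.7% among old fish (10 pairs). For pairs of 1 young and 1 old fish this was 17.2% to 26.9% (25 pairs), with a median of 21.0% against 11.5% and 14.6% within the groups.

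**Figure D2:**
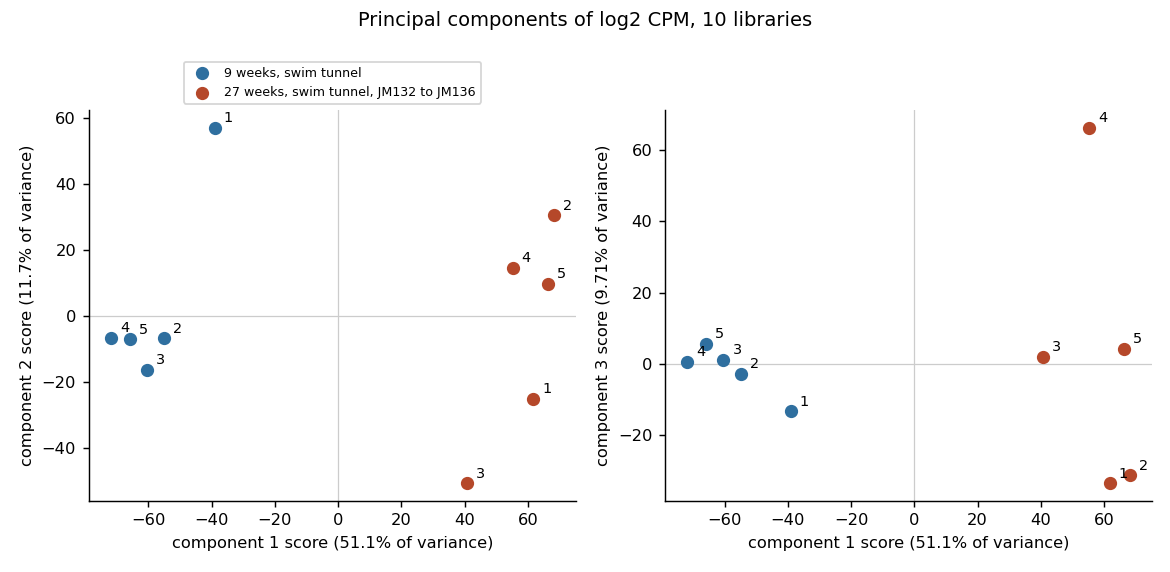
Scores of the 10 libraries on the first against the second component (left) and the first against the third (right), with the replicate number beside each point. The groups lie on opposite sides of 0 on the first component, replicate 1 of the young fish stands apart on the second and replicate 4 of the old fish on the third.

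The called genes, 50.3% of those tested, carried a smaller part of the reads than the genes not called. Genes called higher held 9.78% to 12.7% of the reads of young libraries, with a mean of 11.1% ± 1.06 (SD, n = 5), and 20.9% to 28.1% in old libraries, with a mean of 24.1% ± 2.76 (SD, n = 5). Genes called lower held 29.1% to 35.2% in young libraries, with a mean of 32.6% ± 2.42 (SD, n = 5), and 18.8% to 21.5% in old libraries, with a mean of 20.4% ± 1.10 (SD, n = 5). Genes not called held 56.3% ± 2.57 of reads in young and 55.4% ± 3.00 in old libraries (SD, n = 5 each). These genes were chosen by the same contrast, so the shares describe how much of the read pool is involved and carry no test.

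A small share of the called genes held much of this shift in reads. The share of genes called higher rose by 13.1 percentage points and that of genes called lower fell by 12.2. Of the gain, 50% lay in 200 genes (4.21% of the higher list), and 28.4% in the 10 genes with the largest gains. Of the loss, 50% lay in 115 genes (2.56% of the lower list), and 26.6% in 10 genes. Reads as a whole are concentrated too: the 100 genes with most reads in a library held a mean of 40.2% in young and 38.4% in old fish. How much of the concentration of the shift follows from this was not tested.

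**Figure D3:**
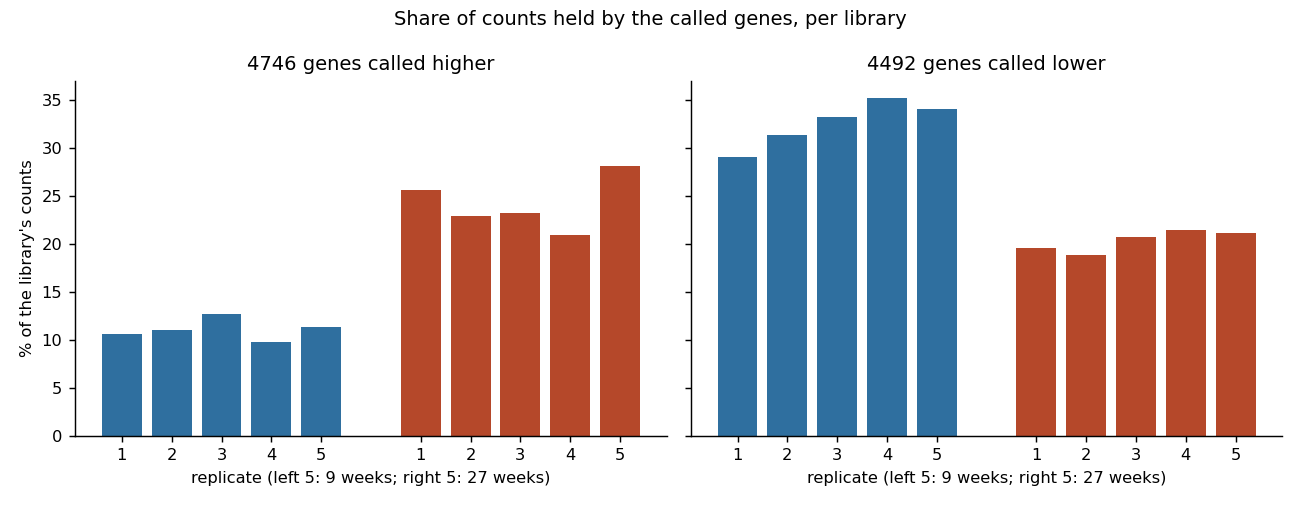
Share of each library's counted reads (%) held by the genes called higher (left) and called lower (right), 1 bar per library, 9 weeks in blue and 27 weeks in red. The higher genes hold 9.78% to 12.7% in young and 20.9% to 28.1% in old libraries, and the lower genes 29.1% to 35.2% and 18.8% to 21.5%.

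Few of the genes with the most reads were higher in old skin. Among the 100 genes with the highest mean CPM, not scaled by length, 6 were higher in old fish and 27 lower, where 25.9% and 24.5% of all tested genes were called, and 0 passed the test against 2-fold. Their median log2 fold change was -0.25. Under the other scalings 5 or 6 were higher and 19 to 38 lower. Among the 1000 highest genes 184 were called higher and 292 lower, and among the 10 highest 2 and 2. As a share of reads the same 100 genes held 39.9% ± 3.97 in young and 37.9% ± 2.74 in old libraries (SD, n = 5 each), a difference smaller than the SD of either group.

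Nfu_g_1_019825, second in mean CPM over the 10 libraries, lost the most reads of the genes whose groups did not overlap. In young fish it stood at 24654, 26704, 26536, 30712 and 24144 CPM, and in old fish at 11878, 12500, 11815, 19174 and 15171 CPM. All old fish were below all young fish, and replicate 4 was the highest of the old fish. The means were 26550 ± 2585 and 14108 ± 3147 CPM (SD, n = 5 each). Old fish were 1.88-fold lower, at -0.91 on the log2 scale (SE 0.159, adjusted p = 0.000698 in edgeR). It was not past 2-fold by the test.

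The largest gain lay in a gene whose groups overlapped, which held 8.12% of the 13.1-point gain of all genes called higher. Among genes without overlap, Nfu_g_1_022498 gained the most reads, from a mean of 0.0516% of counts in young to 0.234% in old libraries. It stood at 1108, 512, 821, 138 and 158 CPM in young fish and at 3272, 1682, 2257, 2152 and 1932 CPM in old fish. The groups did not overlap, and relative to their mean the young fish differed more among themselves than the old, while the SD in CPM was larger in old fish. The means were 547.5 ± 421.4 and 2259 ± 607.5 CPM (SD, n = 5 each). Its change was 2.04 on the log2 scale (SE 0.540, adjusted p = 0.00875 in edgeR), and the test against 2-fold gave an adjusted p of 0.134.

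The steepest fall was that of Nfu_g_1_001750, which was close to absent in old skin. Its counts were 379, 504, 146, 505 and 390 in young fish and 1, 1, 1, 7 and 0 in old fish. In CPM this was 13.4 ± 5.80 in young and 0.0596 ± 0.0733 in old fish (SD, n = 5 each). Its change was -7.69 on the log2 scale (SE 0.661, adjusted p = 5.05e-06 in edgeR), and -8.89 without replicate 4 of the old fish, which held 7 of the 10 reads in old fish. Pooled CPM was 209.2-fold lower in old fish, with an exact 95% interval of 113.5 to 436.9 that covers counting error only. It was 1 of 3 called genes with a fall past 64-fold, while 0 called genes rose by so much.

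The largest rise by the rule for named genes, at a mean of at least 1 CPM, was that of Nfu_g_1_013789, a gene of few reads that met this minimum only through replicate 2 of the old fish. Its counts were 6, 0, 0, 2 and 0 in young fish and 12, 189, 34, 29 and 36 in old fish. In CPM the old fish stood at 0.562, 6.82, 0.958, 0.775 and 0.874, so replicate 2 was far above the rest, and all old fish were above all young fish at 0 to 0.211 CPM. Its change was 5.10 on the log2 scale (SE 1.11, adjusted p = 0.00282 in edgeR), and 3.79 without replicate 2 of the old fish and 6.66 without replicate 1 of the young fish, which held 6 of the 8 reads in young fish.

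The gene with the most reads was not called. Nfu_g_1_002091 stood at 58410, 46608, 29218, 39117 and 27021 CPM in young fish and at 32996, 46853, 35263, 30664 and 17172 CPM in old fish, with overlapping groups. Its change was -0.30 on the log2 scale (95% interval -0.92 to 0.32, adjusted p = 0.401 in edgeR).

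**Figure D4:**
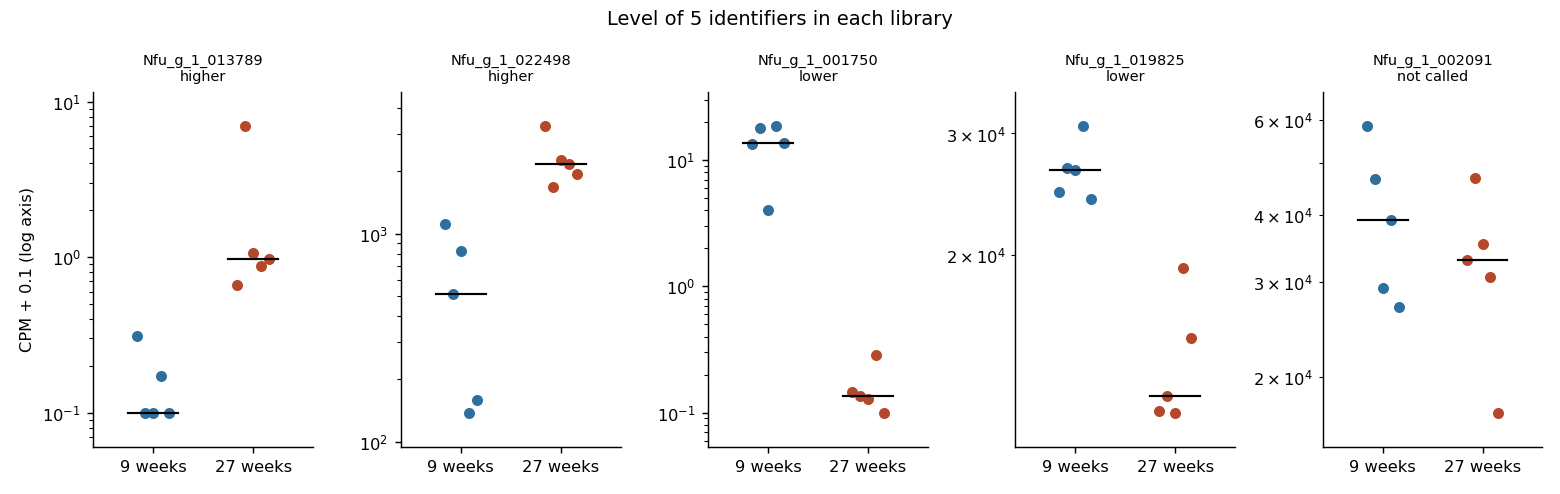
Level of the 5 identifiers in each library as CPM + 0.1 on log axes, 1 point per library, with the median as a line. The scale differs between panels. The groups do not overlap for the first 4 identifiers and overlap for Nfu_g_1_002091.

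Beyond single genes, calls were spread over all levels of expression and were fewest where reads were few. In the lowest quartile of 4587 genes by mean log2 CPM (median 1.29 CPM) 678 genes were called higher and 782 lower. In the second (6.75 CPM) these were 1324 and 1097, in the third (19.1 CPM) 1504 and 1262, and in the highest (60.2 CPM) 1240 and 1351. The median size of a called change fell from 1.16 on the log2 scale in the lowest quartile to 0.71 in the highest. The median SD of log2 CPM was 0.424 in young and 0.496 in old fish in the lowest quartile, and 0.185 and 0.210 in the highest. A call at few reads thus needs a larger change, so the sizes of called changes are not comparable between quartiles. With levels also divided by gene length, 33.6%, 52.7%, 58.2% and 56.8% of the 4 quartiles were called, and the highest quartile had 1490 higher and 1117 lower genes. Ordered by reads alone the highest quartile thus had more lower calls, and ordered by reads per length more higher calls. Past 2-fold by the test, higher genes were the more frequent in both orders, 209 against 102 and 262 against 88. These splits are given for the main scaling only.

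Long genes tended to be lower in old skin relative to short genes. Of the longest quartile (median 6.51 kb), 928 genes were called higher and 1445 lower, against 1302 and 938 of the shortest (median 0.807 kb). The median log2 fold change was -0.15 in the longest and 0.07 in the shortest. Within each quartile of level the longest genes had the lower median, by little in the lowest quartile: the median of the longest genes was -0.08, -0.11, -0.11 and -0.22 from the lowest to the highest level, and that of the shortest -0.06, 0.16, 0.15 and -0.04. With library totals as the scaling, the longest quartile had 1001 higher and 1091 lower genes and the shortest 1408 and 721.

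**Figure D5:**
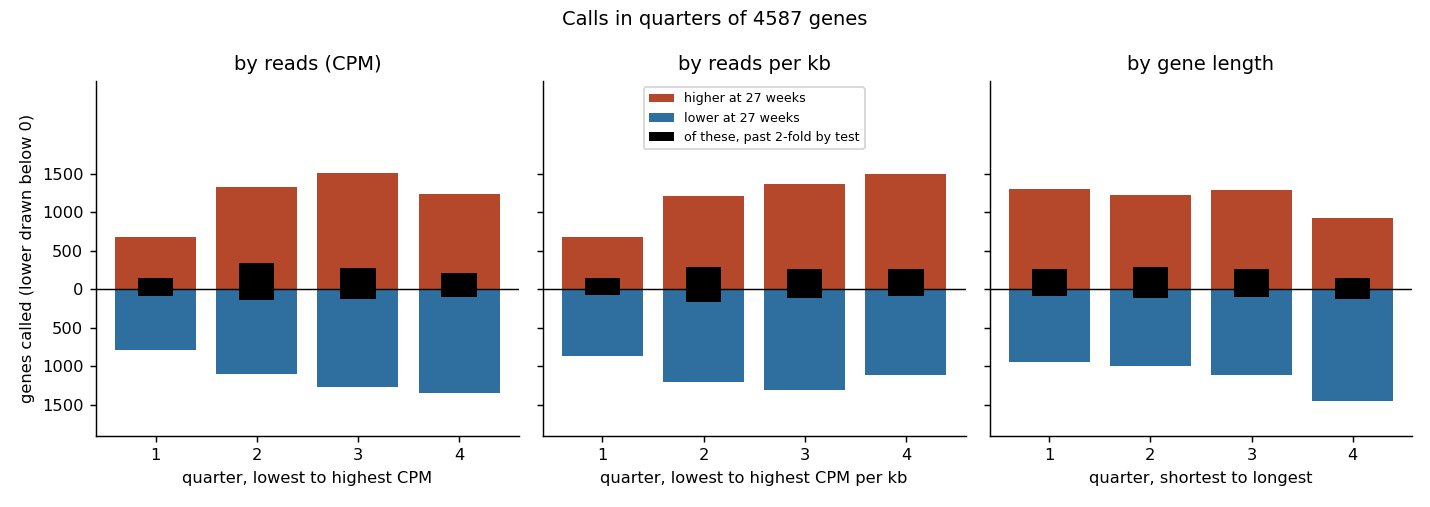
Number of genes called higher (red, above 0) and lower (blue, below 0) in quartiles of 4587 tested genes. Quartiles are by mean log2 CPM (left), by CPM per kb (middle) and by gene length (right). Genes past 2-fold by the test are in black. The longest quartile has 928 higher and 1445 lower genes, the shortest 1302 and 938.

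The same shift was measured library by library. A slope on log2 gene length was fitted to log2 CPM after each gene was centred on the 10 libraries. It was 0.00949 to 0.0339 in young fish, with a mean of 0.0238 ± 0.00971 (SD, n = 5). In old fish it was -0.0479 to -0.0124, with a mean of -0.0238 ± 0.0149 (SD, n = 5). The centring makes the group means equal in size and opposite in sign. Only differences between libraries carry information, not the sign at either age. The groups did not overlap, and the exact two-sided permutation p was 0.00794, the smallest that 5 against 5 libraries can give. Adjusted over the 7 library measures tested it was 0.0556 and did not pass the threshold of 0.05. For a measure that alone reaches the smallest p, no lower adjusted value was possible. The adjusted test thus could not have passed and does not decide whether the slope differed. The part of RNA quality in this slope was not tested.

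The other 6 library measures did not differ beyond the spread between fish (exact two-sided permutation tests, n = 5 against 5). After every library was thinned to the smallest total, 20973 ± 160 genes had a read in young and 20958 ± 205 in old fish (SD, n = 5 each, exact p = 0.921). The 10 genes with most reads in a library held 17.2% ± 2.84 in young and 16.5% ± 1.42 in old fish (exact p = 0.698), and the 100 with most reads 40.2% ± 4.02 and 38.4% ± 2.63 (exact p = 0.381). The effective number of genes, the exponential of the Shannon entropy of reads over genes, was 1792 ± 380 and 2013 ± 310 (exact p = 0.349). Total reads gave an exact p of 0.905 and edgeR's scaling factor, 0.970 ± 0.0817 and 1.04 ± 0.0758, an exact p of 0.254. Adjusted p for these 6 were 0.667 to 0.921.

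Almost no gene met a fixed count rule for presence at 1 age only. No gene with at least 10 counts in every young library had 3 counts or fewer in every old one, and 1 gene met the reverse rule, with 0 to 2 counts in young and 12 to 541 counts in old fish. It did not pass edgeR's expression filter, which asks in how many libraries a gene has enough reads and not for its sum alone, and so was not tested. Of genes with reads in 1 group only, 294 were without a read in all old fish and 277 in all young fish, and 0 of these passed that filter. Every tested gene was thus read at both ages. Genes with few reads at 1 age can fall outside the count rule. Nfu_g_1_001750 did so with 7 reads in 1 old library, and Nfu_g_1_013789 with 6 in 1 young library.

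A smaller set of genes can be bounded near no change. The 95% interval of the fold change lay within 1.5-fold in either direction for 3648 genes (19.9% of those tested). Of these, 3128 were not called and 520 were called with a small change. The remaining 5982 genes that were not called had intervals reaching past 1.5-fold, so a change of that size is not excluded for them. These intervals are not adjusted for the number of genes. In edgeR's test 10352 genes had an unadjusted p under 0.05, more than were called, so some intervals of genes not called exclude no change.

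Fish differed among themselves at both ages. The common biological coefficient of variation in edgeR was 0.265 in young and 0.329 in old fish. The median SD of log2 CPM over tested genes was 0.242 in young and 0.289 in old fish, and 61.3% of genes had the larger SD in old fish. The difference in SD rested on replicate 4 of the old fish, and that in the coefficient of variation did so in part. The median log2 ratio of the SDs, old over young, was 0.23 with all fish and -0.02 without it, and 0.21 to 0.34 without any other library. The biological coefficient of variation of the old fish was 0.303 without it. That of the young fish also leaned on a single library, at 0.227 without replicate 1 of the young fish.

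In most large differences that were not called, a single fish held more than 50% of the summed CPM of its group. Of 49 genes with a fitted change past 4-fold and no call, 37 were higher in old fish, and in 34 of the 37 a single old fish held more than 50% of the summed CPM of its group. The other 12 were lower in old fish, and in 7 of them a single young fish held as much. A large change without a call goes with a wide spread within a group. These shares thus follow in part from how the 49 genes were chosen and carry no test. Replicate 2 of the old fish was the highest in 29 of the 37. The same fish had 112 genes at 4-fold or more above each of the other 9 libraries, against 0 to 12 in any other library. Their median was 23.1 CPM in that fish and they held 0.917% of its reads, against at most 0.0697% in any other library. Of the 112 genes 23 were called, against 50.3% of all tested genes. They were chosen by the height of this fish over the rest, which widens the spread within its group. The low share called and the contrast in reads follow in part from that choice and carry no test. Without this fish 8548 genes were called in all.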

How the data were processed

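Libraries came from total RNA of skin by the TruSeq RNA v2 kit, as the labels' protocols state. The submitters' processing notes name bcl2fastq 1.8.4, STAR 2.4.1d and also featureCounts 1.4.6-p4. Settings for genome build, annotation, strand and multi-mapping were not given in the sources used here, so overlapping, antisense or near-identical genes may share reads. The deposited counts are whole reads per gene, not normalized. In the deposited RPKM values the library totals had been recycled down the rows (count over RPKM was constant for 100% of 10228 genes in that arrangement), so they served only to recover gene lengths.

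Groups came from the age and perturbation labels and the title numbers. Replicates were numbered in sample order, which pairs no fish. Nothing states that each library is a separate animal, and p-values then cover only the variation between these libraries. No 2 libraries of a group agreed within sampling noise (lowest chi-square per degree of freedom 37.2). Members, rules and tests were chosen with earlier results of these data known.

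Counts of the 10 libraries were tested with edgeR 4.0.16 in R 4.3.3 (TMM scaling, its expression filter, robust quasi-likelihood fit, Benjamini-Hochberg adjustment at 0.05, and glmTreat for the test against 2-fold). SE is the size of the log2 change divided by the root of F. In a simulation of 18348 genes, with 50 changed at each size, the test called 0% at 1.5-fold, 34% at 2-fold, 94% at 4-fold and 94% at 8-fold, and 1 of its 112 calls was false. Only 200 genes were changed there, so the adjusted threshold was stricter than in the data, where far more genes are called and smaller changes pass; these shares are not the power of the comparison. A gene at 1 CPM before scaling has 20.6 to 38.6 reads in a library. In each direction the identifiers named were the one with the largest fold change and the one with the largest difference in mean CPM, taken from called genes without overlap whose mean was 1 CPM or more. The highest gene not called was added. Planned gene lists and cell type markers need names and were not run. Alternatives were DESeq2 1.42.0, limma-voom (limma 3.58.1), other scalings and filters, no robust estimation, thinning and leaving out each library.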

Additional observations from a re-analysis of the deposited data

Results flagged for a closer look

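Of 36 checks for a fish far from the other 4 of its group, 3 found one. The measure was the gap to the next fish over the range of the group (0.868, 0.800 and 0.790). A rate of 1 in 20 per check would give 1.8. That rate is for values not picked for their extremes. Nfu_g_1_013789 was named through the fish flagged, and the components were fitted to these libraries. The 3 flags are thus not judged against 1.8. On the second principal component replicate 1 of the young fish was at 57.0, with the next young fish at -6.55. For Nfu_g_1_013789 replicate 2 of the old fish had a log2(CPM + 0.1) of 2.79, and the next old fish 0.08. For Nfu_g_1_001750 replicate 3 was the lowest young fish, with 2.01 on that scale against 3.75. Leaving out these libraries in turn gave 8961, 8548 and 8523 called genes.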

How the results depend on the processing

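The counts of called genes, of genes past 2-fold by the test and of genes with no overlap kept within 1.5 times their main values under every alternative run. Called genes numbered 8447 to 9416 with 1 library left out and 8565 to 9901 under the other settings (DESeq2 9901, limma-voom 9193), and genes past 2-fold 1217 to 1489 and 946 to 1431. Of the 9238 calls 6947 (75.2%; 3929 higher and 3018 lower) were called in the same direction in all 20 fits, a gene removed by a filter counting as not called, and of the 1414 genes past 2-fold 901 (651 higher and 250 lower). Genes with no overlap numbered 7214 to 7897 with 1 library left out, where a smaller group overlaps less easily. The single gene present in 1 group only was lost with limits of at least 5 and at most 0 counts (0 genes) and of at least 20 and at most 3 (0 genes). The log2 ratio of spreads, old over young, was -0.0175 without replicate 4 of the old fish, 0.34 without replicate 4 of the young fish and 0.23 with a prior count of 0.5; leaving out libraries for this measure was chosen after seeing the data, and the cause was not tested. Differences in library measures kept their side of the threshold under every alternative. The length slope, alone at the smallest possible p, could not have crossed it, so its constancy there shows nothing. With 1 library left out the slope difference ranged from -0.0512 to -0.0417. The differences in total reads, in genes with a read after thinning and in the share of the 10 highest genes changed sign. The 4 called identifiers kept their direction and call in each fit that tested them. For Nfu_g_1_013789 these were 16 alternatives, against 19 for each of the others. DESeq2 gave no adjusted p for it. The filter of at least 1 CPM in 5 libraries and the thinned counts gave no value for it. No paired analysis was possible because the replicate numbers follow sample order. The number of fish and, at low counts, depth limit what could be called.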
